A study of Mus musculus with 20 samples.

Results

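The expression of 10 cell-surface and lysosomal receptors, the scavenger receptors *Cd36*, *Msr1*, *Scarb1*, *Cd68*, *Olr1* and *Colec12* and the C-type lectins *Mrc1*, *Clec4d*, *Clec4e* and *Clec4n*, was measured by RNA-Seq in BV-2 microglia. These are the rows of the deposited count table whose Ensembl mouse gene identifiers map to the 10 symbols, out of 55487 genes listed and 12799 tested, and all 10 were among the genes tested. The libraries came from 4 groups of 5 cultures, all of the wild-type line labelled WT: young and aged BV-2 cells, each either untreated or given bacterial lipopolysaccharide (LPS) at 100 ng/ml for 6 hours. BV-2 is an immortalised microglial line from mouse brain. The aged cells were the same line after long-term cultivation from a later starting passage, frozen in aliquots and thawed together with low-passage control cells, here called young, so age here means time in culture of 1 cell line and not the age of an animal. All 4 groups grew in medium with foetal bovine serum, the LPS was from *Escherichia coli*, and each number from 1 to 5 is also given as a batch in the sample labels.

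Scavenger receptors bind modified lipoproteins, polyanions, dying cells and microbial surfaces and carry them into the cell. C-type lectins and their relatives recognise sugars or glycolipids, and those of the Dectin-2 family pair with the FcRγ chain, encoded by *Fcer1g*, which signals through the kinase Syk and the adaptor Card9. In microglia and macrophages these receptors are known for uptake of debris, lipids and protein aggregates and for recognition of fungi and mycobacteria, and LPS, which acts through Toll-like receptor 4, is a standard inflammatory stimulus of these cells.

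Library totals ran from 11371508 to 16829292 counts, and a floor of 3 counts corresponded to between 0.165 and 0.296 counts per 1000000 counts of the library (CPM) depending on the library. CPM are given on library sizes scaled by the trimmed mean of M-values (TMM), and floors and such limits cover counting error only. All 12 microglial and macrophage markers were above the floor in every untreated library, with *Ptprc*, *Csf1r*, *Spi1*, *Adgre1*, *Tyrobp* and *Fcer1g* above 156 CPM in every library, whereas the homeostatic markers *Cx3cr1* and *P2ry12* stayed at or below 1.87 CPM. Of 25 markers of other cell types, 13 had no count in any library, and the markers of each such cell type summed to at most 1.78 CPM in any library. The LPS control *Tnf* lay between 12.7 and 30.1 CPM in the untreated libraries and between 401 and 1124 CPM in the LPS libraries, and the controls *Il1b* and *Nos2* reached at most 2.23 and 3.38 CPM without LPS and at least 15.9 and 62.2 CPM with it. In cultures such as these, fewer cells that make an RNA and less of that RNA per cell cannot be told apart.

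The 3 genes with the largest rise after LPS were *Clec4d*, *Clec4e* and *Olr1*, so the 250 bases before their transcription starts are shown, from RefSeq on GRCm38.p6, 5′ to 3′ along the strand of the gene. They lie at chr6:123261857-123262106 (plus strand), chr6:123289872-123290121 (minus strand) and chr6:129507166-129507415 (minus strand), and capitals mark matches to the motifs named after them.
Clec4d: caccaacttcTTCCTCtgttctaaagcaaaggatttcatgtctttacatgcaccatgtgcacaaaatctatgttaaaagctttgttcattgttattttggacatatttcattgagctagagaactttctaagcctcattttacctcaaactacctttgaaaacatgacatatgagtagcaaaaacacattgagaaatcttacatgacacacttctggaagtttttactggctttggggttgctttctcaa
Clec4e: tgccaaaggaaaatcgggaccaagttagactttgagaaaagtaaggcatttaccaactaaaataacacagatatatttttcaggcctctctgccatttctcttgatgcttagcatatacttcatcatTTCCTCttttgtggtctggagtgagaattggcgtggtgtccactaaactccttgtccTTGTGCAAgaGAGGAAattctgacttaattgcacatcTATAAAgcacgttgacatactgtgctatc
Olr1: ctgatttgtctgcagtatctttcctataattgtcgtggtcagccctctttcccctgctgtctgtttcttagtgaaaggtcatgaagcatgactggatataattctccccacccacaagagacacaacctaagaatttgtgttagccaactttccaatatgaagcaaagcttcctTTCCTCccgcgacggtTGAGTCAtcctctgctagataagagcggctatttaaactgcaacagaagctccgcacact
The searched motifs, read on both strands, were GAGGAA for PU.1, TGANTCA for AP-1, TTGCNNAA for C/EBP, TTCNNNGAA for the interferon-gamma-activated site (GAS), TATAAA for the TATA box, and the NF-kB consensus. *Clec4e* held a TATA box from base 29 to base 24 before its start, a C/EBP match from base 66 to base 59 and PU.1 matches from base 56 to base 51 and from base 123 to base 118. *Olr1* held an AP-1 match from base 60 to base 54 and a PU.1 match from base 76 to base 71, and *Clec4d* held a PU.1 match from base 240 to base 235; no matches overlapped. Among all 32851 upstream windows of that length in the table, 23.3% held the PU.1 letters, 6.75% AP-1, 9.56% C/EBP and 12.4% the TATA box. The NF-kB consensus, in 7.25% of all windows, and GAS, in 7.02%, had no match in the windows of the 6 receptors in the table, which also hold *Cd36*, *Cd68* and *Mrc1*. *Msr1*, *Scarb1*, *Clec4n* and *Colec12* have no entry there.

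LPS raised *Clec4d* and *Clec4e* of the Dectin-2 family and the oxidised-LDL receptor *Olr1* and lowered the mannose receptor *Mrc1*, the HDL receptor *Scarb1* and the collectin *Colec12*, at both ages, and raised *Clec4n* past the threshold in young cells. In young cells 4 of the 10 genes rose and 3 fell at an adjusted p below 0.05 (edgeR's quasi-likelihood test, Benjamini-Hochberg adjustment over all genes tested), against a background of 31.2% of all genes that rose and 33.5% that fell. In aged cells 3 rose and 3 fell, against 27.5% and 26.9% of all genes. The 6 genes that passed in aged cells also passed in young cells, and all 6 moved in the same direction. The share of receptors that moved is close to the share of all genes, and what set some of them apart was size: only 114 genes rose more than *Clec4e* in young cells, 188 more than *Olr1* and 366 more than *Clec4d*. The place of *Olr1* is uncertain, as it rests on 3 to 8 counts a library in young untreated cells. The 10 genes were also chosen with earlier results of these data known.

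*Clec4e*, which encodes Mincle, a receptor for mycobacterial glycolipids and a component of dead cells, rose most of the 10. It measured 30.9, 18.5, 16.5, 16.8 and 15.2 CPM in young untreated cultures 1 to 5 and 13.6, 19, 21.5, 15.9 and 14.4 CPM in the aged untreated ones. With LPS the young cultures held 731, 624, 556, 406 and 519.8 CPM and the aged cultures 337, 401, 505, 395 and 361 CPM. Every LPS culture was more than 10 times above every untreated one, and young culture 1 was the highest of its group under both conditions. The log2 fold change was 4.86 ± 0.19 (SE) in young cells, a 29-fold rise with an edgeR adjusted p of 1.27e-15, and 4.56 ± 0.19 in aged cells, 23.6-fold with an edgeR adjusted p of 6.18e-15. Within the 5 batches the rise ran from 23.6 to 34.2 times in young and from 21.1 to 25.1 times in aged cells.

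*Clec4d*, encoding MCL, which pairs with Mincle and Dectin-2, followed at a smaller size. Its untreated levels were 48.1, 37.5, 36.3, 27.2 and 28.6 CPM in young and 16.4, 29.9, 47.8, 31.8 and 25.8 CPM in aged cultures. LPS brought them to 188, 222, 203, 193 and 197 CPM in young and to 127, 147, 155, 148 and 157 CPM in aged cultures. The untreated groups overlapped widely, while all 5 aged LPS cultures lay below all 5 young LPS cultures. The rise was 5.65-fold in young cells (log2 2.50 ± 0.18 SE, edgeR adjusted p = 3.18e-11) and 4.82-fold in aged cells (log2 2.27 ± 0.18 SE, edgeR adjusted p = 3.15e-10). Per kb of exon, *Clec4e* ran at 0.147 to 0.207 of the *Clec4d* level in young untreated and 0.145 to 0.268 in aged untreated cultures, and at 0.676 to 1.25 and 0.738 to 1.05 of it with LPS. The untreated and LPS ratios thus did not overlap, and the young and aged ratios did.

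*Clec4n*, encoding Dectin-2, a receptor for fungal mannans, was low in all groups, with 7 to 36 counts a library. Young untreated cultures held 1.45, 1.34, 1.51, 0.989 and 1.46 CPM and aged untreated cultures 0.453, 1.28, 0.913, 1.43 and 0.732 CPM. After LPS the values were 1.38, 2.57, 2.48, 2.24 and 2.58 CPM in young and 1.05, 1.07, 1.38, 1.08 and 1.52 CPM in aged cultures. Of the young LPS cultures 4 stood above every untreated culture, and culture 1 did not. The rise passed the test in young cells (1.68-fold, log2 0.75 ± 0.22 SE, edgeR adjusted p = 0.00569) and not in aged cells (log2 0.34 ± 0.25 SE, edgeR adjusted p = 0.279). The difference between those changes was -0.41 on the log2 scale, with a 95% interval of -1.12 to 0.29 and an edgeR adjusted p of 0.575.

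*Olr1* (chr6:129485244-129507165 on GRCm38, minus strand), encoding LOX-1, the class E receptor for oxidised LDL with a lectin-like fold, was barely detected without LPS. The young untreated libraries had 4, 8, 6, 3 and 3 counts and the aged ones 1, 2, 5, 7 and 3 counts. With LPS the counts were 78, 59, 65, 27 and 36 in young and 13, 29, 71, 26 and 11 in aged cultures, or 7.71, 4.89, 4.48, 2.01 and 2.65 CPM and 0.913, 2.39, 4.9, 2.01 and 0.796 CPM. No LPS culture overlapped an untreated one, and within each LPS group the highest culture was several times the lowest. The fitted rise was 3.74 ± 0.51 (SE) on the log2 scale in young cells (edgeR adjusted p = 1.00e-06) and 3.27 ± 0.58 in aged cells (edgeR adjusted p = 4.91e-05), with 95% intervals of 2.69 to 4.79 and 2.07 to 4.47 that reflect the few untreated counts.

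**Figure D1:**
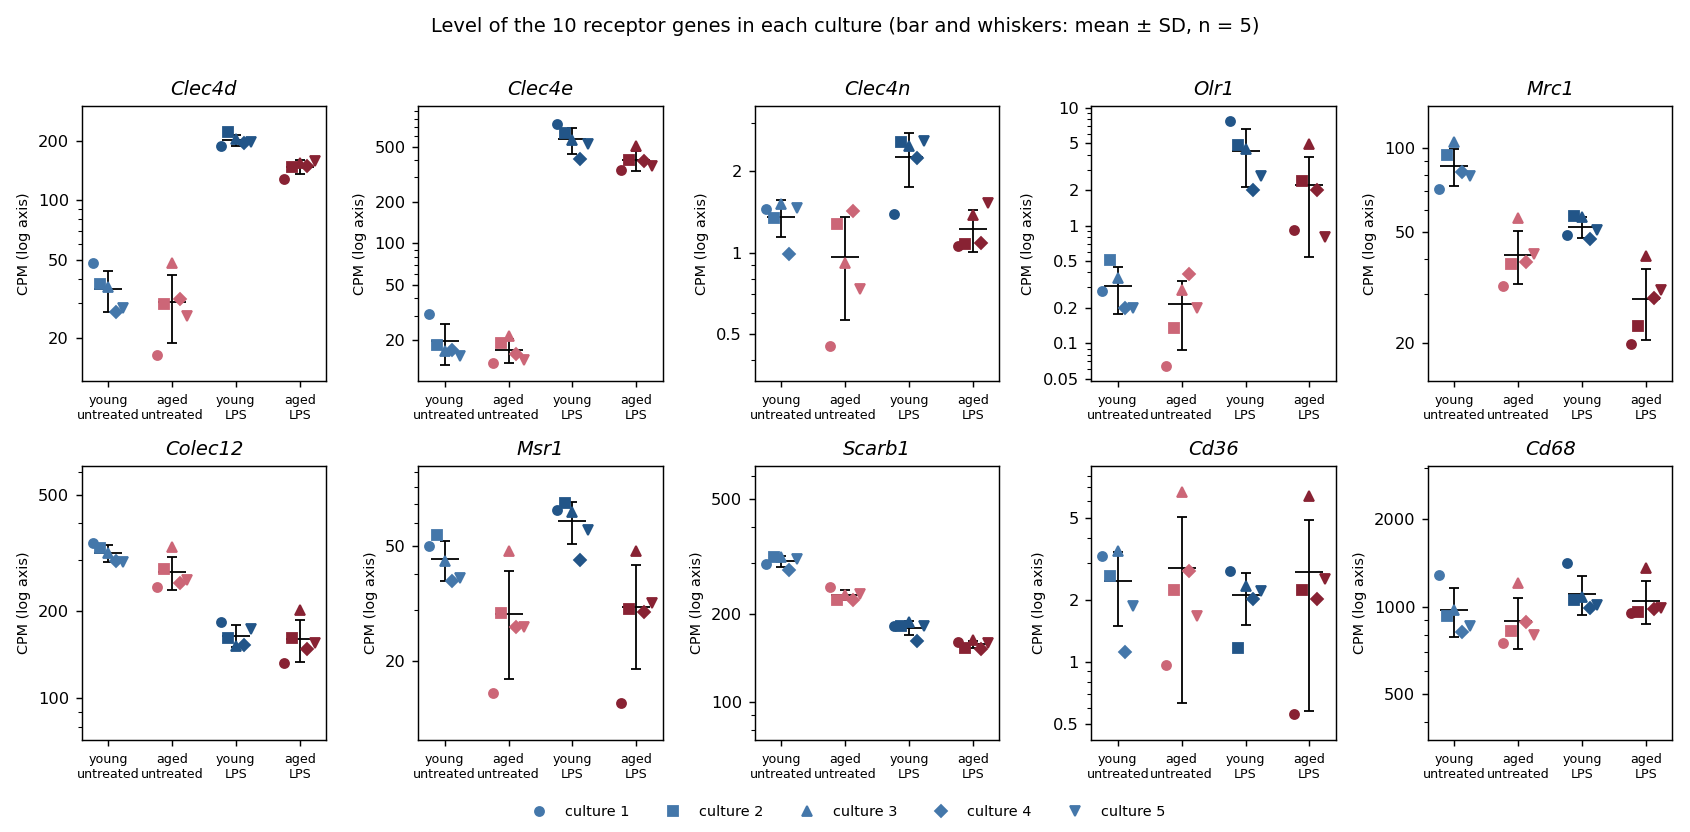
CPM (log axis) of each of the 10 genes in the 5 cultures of each group, with marker shapes for culture numbers and a bar and whiskers for the mean ± SD. *Clec4e*, *Clec4d* and *Olr1* rise with LPS at both ages, *Mrc1*, *Scarb1* and *Colec12* fall, and the aged *Mrc1* points lie below the young ones under both conditions.

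*Clec4n*, *Clec4d* and *Clec4e* are neighbours on chromosome 6 of GRCm38, at chr6:123229843-123247021 (plus strand), chr6:123262111-123275265 (plus strand) and chr6:123281789-123289870 (minus strand). *Clec4d* and *Clec4e* face each other tail to tail with 6523 bases between their ends, and no receptor shares exon bases with another annotated gene. The cluster of 9 *Clec4* genes between 122921848 and 123289870 was looked at after the receptors' values were seen, and 6 of its genes were tested. *Clec4a1*, at the far end, measured 0.2 to 0.857 CPM in young untreated and 3.66 to 7.3 CPM in young LPS cultures and rose (log2 fold change 3.36, edgeR adjusted p = 1.36e-09). *Clec4a3* measured 9.36 to 12.9 CPM untreated and 6.52 to 10.4 CPM with LPS in young cells, a log2 difference of -0.33 that did not pass the test (edgeR adjusted p = 0.0924). In aged cells *Clec4a3* measured 8.96 to 13.5 CPM untreated and 4.21 to 8.61 CPM with LPS and fell (log2 fold change -0.64, edgeR adjusted p = 0.00305), and *Clec4a1* rose there as in young cells (log2 fold change 3.62, edgeR adjusted p = 1.09e-08). *Clec4a2* stayed below 1 CPM in every library of the 4 groups. Its log2 fold change with LPS was 0.055 in young and -0.0048 in aged cells (edgeR adjusted p = 0.889 and 0.993). *Clec4a4*, *Clec4b1* and *Clec4b2* were not tested. The rise with LPS was not seen for *Clec4a3* or the low *Clec4a2* at either age, and that of *Clec4n* did not pass in aged cells.

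*Mrc1* (chr2:14229392-14332057 on GRCm38, plus strand), encoding the mannose receptor, an endocytic lectin of alternatively activated macrophages and of border macrophages in the brain, was lower with LPS and lower with age. Young untreated cultures held 71.1, 94.2, 105, 82.4 and 79.6 CPM and aged untreated cultures 32.1, 38.4, 56.1, 39.2 and 41.8 CPM. Young LPS cultures held 48.8, 57.2, 56.5, 47.4 and 50.8 CPM and aged LPS cultures 19.8, 23.1, 41, 29 and 31.1 CPM. Under each condition all 5 aged cultures were below all 5 young ones, and the aged untreated level overlapped the young LPS level. The log2 fold change with LPS was -0.73 ± 0.15 (SE) in young cells (edgeR adjusted p = 0.000198) and -0.53 ± 0.16 in aged cells (edgeR adjusted p = 0.00722), and *Mrc1* was lower with LPS in 5 of 5 batches at each age.

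*Scarb1* (chr5:125277087-125341094 on GRCm38, minus strand), encoding SR-BI, the class B receptor for HDL, had the smallest coefficient of variation of the 10 genes in every group. It measured 297, 315, 314, 285 and 310.2 CPM in young untreated, 248, 224, 234, 224 and 235 CPM in aged untreated, 182, 183, 188, 162 and 182 CPM in young LPS and 161, 153, 163, 152 and 159 CPM in aged LPS cultures. Its coefficient of variation was between 2.95% and 5.44% in the 4 groups. With LPS the groups did not overlap, and *Scarb1* fell by 41% in young cells (log2 fold change -0.76 ± 0.04 SE, edgeR adjusted p = 1.03e-12) and fell by 32.4% in aged cells (log2 fold change -0.56 ± 0.04 SE, edgeR adjusted p = 3.53e-10).

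*Colec12*, encoding the scavenger receptor with a C-type lectin domain known as CL-P1, fell most with LPS. Its range was 294 to 343 CPM in young untreated and 242 to 331 CPM in aged untreated cultures, against 151 to 183 CPM and 132 to 202 CPM with LPS. The groups with and without LPS did not overlap at either age. The log2 fold changes were -0.94 ± 0.09 (SE) in young and -0.76 ± 0.09 in aged cells, with edgeR adjusted p of 1.00e-08 and 4.26e-07.

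In the comparison of aged with young cells, 9 of the 10 receptors had a lower fitted level in aged cells under each condition. The share of all genes with a lower fitted level was not counted, but their median log2 fold change was -0.01 without and 0.0085 with LPS. The 10 genes were measured in the same libraries and are not 10 separate observations. Without LPS 2 of the 10 genes, *Mrc1* and *Scarb1*, were lower in aged cells at an adjusted p below 0.05, against a background of 7.81% of all genes, and none was higher. These 2 were also the genes for which every aged culture lay below every young one, a pattern of 6.63% of all genes tested. The median log2 fold change over the 10 was -0.30, and over all genes tested it was -0.01. *Mrc1* was 2.08-fold lower (log2 -1.06 ± 0.15 SE, edgeR adjusted p = 8.68e-05), with aged levels of 0.407 to 0.535 times the young level of the same batch. Only 218 of the 12799 genes had a larger decrease. *Scarb1* fell by less, 1.31-fold (log2 -0.39 ± 0.04 SE, edgeR adjusted p = 5.33e-06).

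*Msr1* (chr8:39581685-39642673 on GRCm38, minus strand), encoding the class A scavenger receptor SR-A, a receptor for modified LDL and bacterial surfaces, sat near the threshold in untreated cells. Its levels were 49.9, 54.4, 44.1, 37.8 and 38.8 CPM in young and 15.4, 29.3, 47.9, 26.2 and 26.2 CPM in aged untreated cultures. With LPS they were 66.7, 70.3, 65.5, 44.8 and 56.7 CPM in young and 14.3, 30.1, 48.1, 29.5 and 31.8 CPM in aged cultures. Aged culture 3 reached the young range under both conditions, and aged culture 1 had the lowest value of its group under both. The untreated difference was -0.63 ± 0.24 (SE) on the log2 scale with an edgeR adjusted p of 0.096, and 0.0276 with the batch as a block. Without batch 3 the adjusted p was 0.0137 and *Colec12*, at -0.22 with an edgeR adjusted p of 0.137 over all cultures, was also lower (edgeR adjusted p = 0.0139), so that 4 of the 10 genes passed. Leaving out aged culture 3 alone gave an edgeR adjusted p of 0.00442 for *Msr1* and 0.0051 for *Colec12*. That culture was the highest aged untreated one for both genes and was picked after the values were seen. Its removal lowers the aged level by construction, so these values are no separate support for a difference.

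With LPS 6 of the 10 genes were lower in aged than in young cells and none was higher, against 15.0% of all genes that were lower. Over the 10 genes the log2 fold changes had a median of -0.48, against 0.0085 over all genes tested. *Msr1* was 1.97-fold lower (log2 -0.98 ± 0.24 SE, edgeR adjusted p = 0.00401), *Clec4n* 1.85-fold (log2 -0.89 ± 0.23 SE, edgeR adjusted p = 0.00579) and *Mrc1* 1.81-fold (log2 -0.85 ± 0.16 SE, edgeR adjusted p = 0.000281). *Clec4e* and *Clec4d* were lower by smaller factors of 1.42 (log2 -0.51 ± 0.16 SE, edgeR adjusted p = 0.0193) and 1.37 (log2 -0.45 ± 0.17 SE, edgeR adjusted p = 0.0453), and *Scarb1* by 1.14 (log2 -0.19 ± 0.05 SE, edgeR adjusted p = 0.00301). All 6 were lower in the aged culture of each of the 5 batches, a pattern whose share of all genes was not counted. The 6 were picked as lower from the same values, so this is no separate support for a difference. For 2, *Mrc1* and *Clec4d*, no aged culture overlapped a young one, a pattern of 8.16% of all genes. *Olr1* was -0.95 ± 0.38 (SE) on the log2 scale, with an edgeR adjusted p of 0.0644, or 0.0251 with the batch as a block. The edgeR adjusted p was 0.00291 without aged culture 3, the highest aged LPS culture for *Olr1*, whose removal lowers the aged level by construction. Without batch 2 only 3 genes passed, *Mrc1*, *Msr1* and *Scarb1*, and the edgeR adjusted p rose to 0.201 for *Clec4d*, 0.118 for *Clec4e* and 0.0547 for *Clec4n*. *Clec4d* also missed the threshold in DESeq2 (adjusted p = 0.0813), without batch 4 or 5 (edgeR adjusted p = 0.0957 and 0.0854), and *Clec4e* without batch 5 or aged culture 1 (edgeR adjusted p = 0.0573 and 0.0554).

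Several microglial and macrophage markers were also lower in aged cells. The summed level of the 12 was 2306 to 3138 CPM in young and 1919.5 to 2576 CPM in aged untreated cultures, and 2835 to 3863 CPM against 2287 to 3116 CPM with LPS. Of the 12 markers 5 were lower in aged untreated cells and 7 in aged LPS cells, against 7.81% and 15.0% of all genes, with 0 and 1 higher, and the others did not pass the test. Their part in the lower receptor levels was not tested. The markers of other cell types were at or near 0 in both ages.

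**Figure D2:**
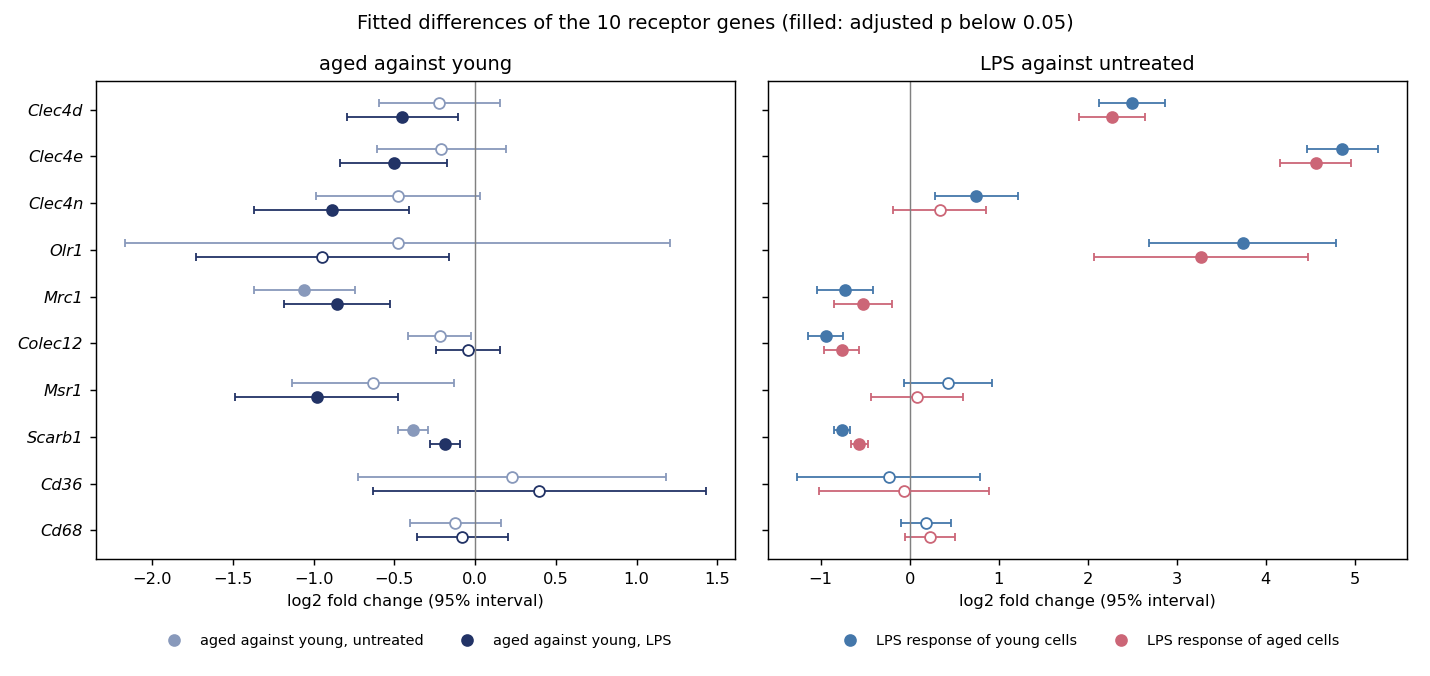
Fitted log2 fold changes of the 10 genes with 95% intervals, aged against young on the left and LPS against untreated on the right, filled where the adjusted p was below 0.05. All filled points on the left lie below 0, at -0.19 to -1.06, and on the right *Clec4e* stands at 4.86 in young and 4.56 in aged cells.

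Whether the LPS response itself differed between the ages was tested as the difference of the log2 fold changes. None of the 10 genes passed in edgeR, against 6.39% of all genes, and 1, *Scarb1*, had an unadjusted p below 0.05; DESeq2 also gave 0. For *Scarb1* the response was 0.20 ± 0.06 (SE) less negative in aged cells on the log2 scale, with a 95% interval of 0.07 to 0.33 and an edgeR adjusted p of 0.0663, or 0.017 with the batch as a block. The intervals of the Dectin-2 family and *Olr1* all included 0: -0.81 to 0.22 for *Clec4e* around -0.30, -0.74 to 0.28 for *Clec4d* around -0.23, and -2.46 to 1.52 for *Olr1* around -0.47. Differences inside these intervals are compatible with the values of these cultures and are neither shown nor excluded.

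*Cd36* and *Cd68* passed in no comparison. *Cd36* (chr5:17781690-17888801 on GRCm38, minus strand), encoding the class B receptor for fatty acids, thrombospondin and oxidised LDL, was low and scattered. It measured 3.24, 2.62, 3.44, 1.12 and 1.86 CPM in young untreated and 0.97, 2.22, 6.62, 2.75 and 1.66 CPM in aged untreated cultures. With LPS it measured 2.77, 1.16, 2.34, 2.01 and 2.21 CPM in young and 0.562, 2.23, 6.35, 2.01 and 2.53 CPM in aged cultures. Its coefficient of variation reached 78.8% in aged LPS cultures, and its 95% interval for the aged against young difference ran over -0.72 to 1.18 untreated and -0.63 to 1.43 with LPS. *Cd68* (chr11:69664213-69666153 on GRCm38, minus strand), encoding the class D receptor macrosialin of late endosomes and lysosomes, was the most abundant of the 10 and lay at 817 to 1288, 753 to 1205, 988 to 1409 and 953 to 1362 CPM in young untreated, aged untreated, young LPS and aged LPS cultures. It was higher with LPS in 5 of 5 batches at each age, by 1.09 to 1.21 times in young and 1.11 to 1.26 times in aged cells, yet with edgeR adjusted p of 0.238 and 0.161, or 0.147 and 0.0918 with the batch as a block. *Msr1* was likewise higher with LPS in 5 of 5 young batches, at 0.43 ± 0.24 (SE, log2 fold change) and an edgeR adjusted p of 0.116; it passed when the 10 young libraries were fitted alone (edgeR adjusted p = 0.00739) and without aged culture 3 or aged culture 1 (edgeR adjusted p = 0.0358 and 0.0346).

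The scaling of the libraries matters for the small LPS changes. With library sizes alone in place of TMM the median log2 fold change of all genes with LPS moved from -0.01 to -0.23 in young and from 0.00051 to -0.16 in aged cells, and the share of calls that were rises from 48.2% to 27.3% and from 50.6% to 28.4%. In aged against young LPS cells that share moved from 48.3% to 70.1%, and in the difference of the responses from 64.4% to 81.3%. Under that scaling *Cd68* turned to -0.034 in young LPS cells and *Msr1* to -0.079 in aged LPS cells, below 0 but above the median of all genes, while *Clec4e*, *Clec4d*, *Olr1*, *Mrc1*, *Scarb1* and *Colec12* kept the direction and the call of their LPS changes at both ages. In aged against young LPS cells *Scarb1* and *Clec4d* lost their calls (edgeR adjusted p = 0.061 and 0.0822).

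Levels can be set side by side between genes only per length, so CPM were divided by the kilobases covered by the annotated exons of each gene. That length joins the exons of all annotated transcripts, whichever were expressed. The order between genes and the ratio of *Clec4e* to *Clec4d* given above therefore depend on the annotation. On that scale *Cd68* led in every group, with a mean of 775 CPM per kb in young untreated cells, above 99.8% of all genes tested. *Colec12* and *Scarb1* followed at 36.2 and 35.8 CPM per kb, with ranges that overlapped, and then *Clec4d* at 22.2, *Mrc1* at 13.6, *Msr1* at 7.1 and *Clec4e* at 3.94 CPM per kb, the last 2 with overlapping ranges. *Clec4n* at 0.951 and *Cd36* at 0.685 CPM per kb overlapped, and *Olr1* came last at 0.0866 CPM per kb, above 1.26% of genes. LPS rearranged the middle of this order. *Clec4d* and *Clec4e* moved up to 126 and 114 CPM per kb in young and 91.9 and 80.5 CPM per kb in aged cells, overlapping each other and standing above *Scarb1* and *Colec12*, which overlapped in every group. In aged untreated cells the order was the same as in young ones down to *Clec4e*, at 3.4 CPM per kb, with overlap now also between *Scarb1* and *Clec4d* and between *Mrc1* and *Msr1*, the latter at 6.52 and 4.57 CPM per kb.

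**Figure D3:**
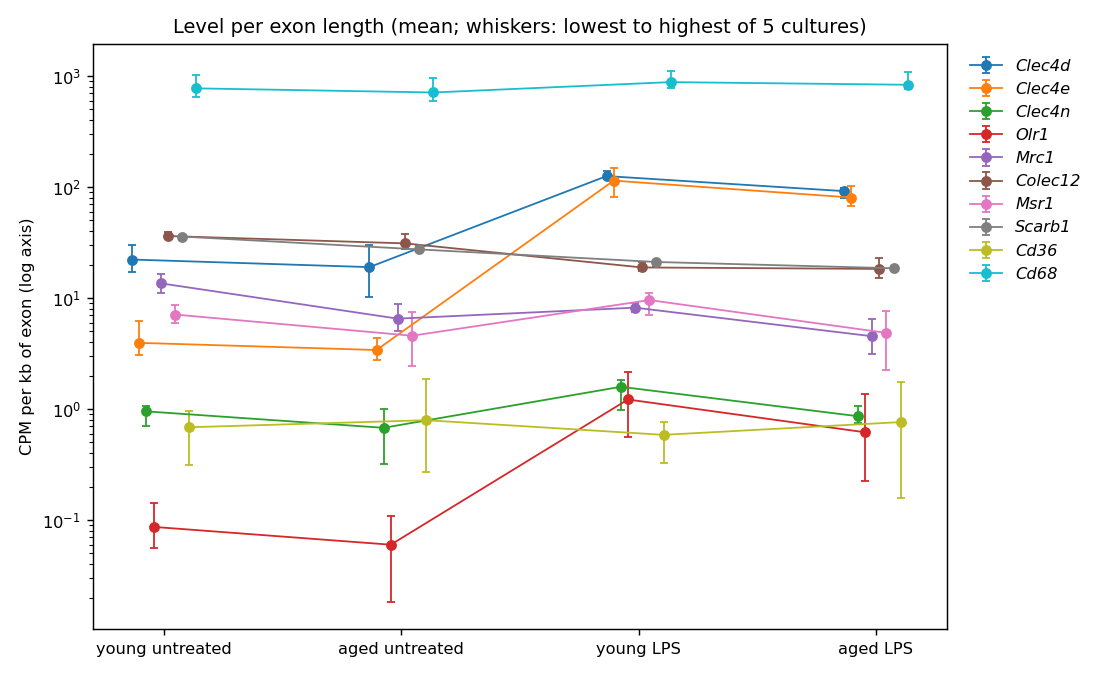
Mean CPM per kb of exon (log axis) of the 10 genes in the 4 groups, with whiskers from the lowest to the highest of 5 cultures. *Clec4d* and *Clec4e* rise past *Scarb1* and *Colec12* with LPS, to means between 80.5 and 126 CPM per kb, while *Cd68* stays highest, with group means of 711 to 882 CPM per kb.

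Several receptors rose and fell together from culture to culture within the aged groups, a pattern picked out after the values were seen. Aged culture 3 was the highest of the 5 aged cultures both untreated and with LPS for 6 of the 10 genes, *Cd36*, *Msr1*, *Cd68*, *Mrc1*, *Clec4e* and *Colec12*, against 13.2% of all genes. Aged culture 1 was the lowest under both conditions for 8 of the 10, all but *Scarb1* and *Olr1*, against 7.76% of all genes. *Cd36* shows the span, with 6.62 and 6.35 CPM in aged culture 3 and 0.97 and 0.562 CPM in aged culture 1. In young cells culture 4 was lowest under both conditions for *Msr1*, *Scarb1*, *Cd68* and *Olr1*, and culture 1 highest for *Cd68*, *Clec4e* and *Colec12*. The share of all genes with these patterns in young cells was not counted, so whether they are unusual is not known. The summed microglial and macrophage markers followed the same cultures, but not every marker did. Aged culture 3 held 2576 and 3116 CPM of the summed markers, against 1919.5 to 2032 CPM and 2287 to 2512 CPM in the other aged cultures. *Csf1r* went with the sum, at 784 CPM in aged culture 3 and 562 CPM in aged culture 1 without LPS. *Spi1* went the other way without LPS, with 226 CPM in aged culture 3, the lowest, and 274 CPM in aged culture 1, the highest. With LPS *Spi1* was at 559 and 543 CPM in these cultures. The library totals of aged culture 3, 16431886 and 15251546 counts, were the second highest and the highest of their groups. Its shares of mitochondrial counts, 1.03% and 0.669%, lay inside the range of the others. The part of the markers, totals or mitochondrial shares in the culture pattern was not tested.

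**Figure D4:**
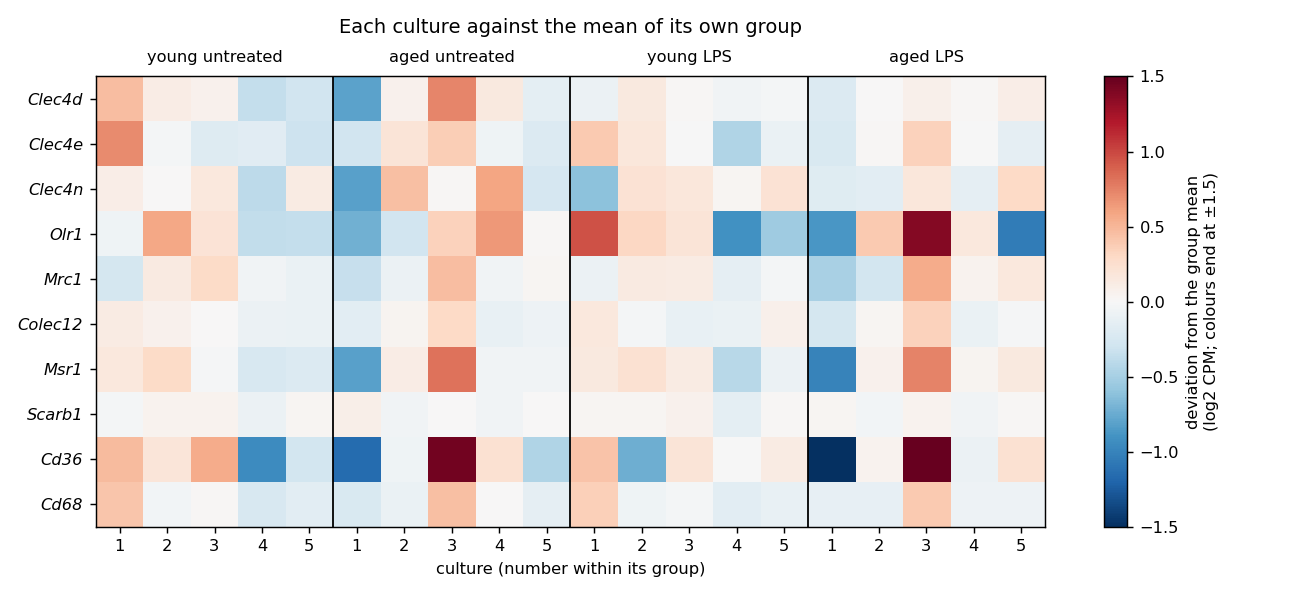
Deviation of log2 CPM of each gene in each culture from the mean of its group, in red above and in blue below, with colours ending at 1.5 either way. The column of aged culture 3 is red and that of aged culture 1 blue for most genes both untreated and with LPS, and the *Scarb1* row is nearly white.

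The partners through which *Clec4d*, *Clec4e* and *Clec4n* signal responded to LPS in both directions. Of 24 genes of lectin receptor signalling, all tested, 11 rose and 8 fell in young cells, against 31.2% and 33.5% of all genes, and 12 rose and 7 fell in aged cells, against 27.5% and 26.9%. The numbers that fell were near those backgrounds, and the numbers that rose were above them. *Syk*, the kinase that docks on the phosphorylated FcRγ chain, rose in young cells from a range of 114 to 142 CPM untreated to a range of 548 to 716 CPM with LPS (log2 fold change 2.32, edgeR adjusted p = 1.35e-15). In aged cells its range was 102 to 113 CPM untreated and 385 to 535 CPM with LPS (log2 fold change 2.01, edgeR adjusted p = 2.53e-14). *Src*, a kinase of the Src family, rose in young cells (log2 fold change 4.17, edgeR adjusted p = 2.96e-14) and in aged cells (3.81, edgeR adjusted p = 1.71e-12). *Nfatc2*, a transcription factor controlled by calcineurin, fell in young cells (-1.71, edgeR adjusted p = 8.24e-16), and *Inpp5d*, encoding the inhibitory lipid phosphatase SHIP1, fell in aged cells (-1.51, edgeR adjusted p = 1.24e-12). Only the largest changes of each comparison are named, so a gene named at 1 age may have changed at the other as well. With age 5 of the 24 were lower without LPS, against 7.81% of all genes, and none was higher. Among the 5 were *Src* (-1.15, edgeR adjusted p = 0.00567), *Inpp5d* (-0.28) and *Vav3* (-0.26). With LPS 10 were lower and 3 higher, against 15.0% and 14.0% of all genes, and the decreases were led by *Src* (-1.51, edgeR adjusted p = 1.05e-06), *Malt1* (-0.93) and *Prkcd* (-0.58). *Malt1*, the paracaspase downstream of Card9, also had a smaller LPS response in aged cells (difference -0.92, edgeR adjusted p = 0.0114), whereas those of *Nfatc2* (0.67) and *Nfatc1* (0.51) were more positive. For *Nfatc2* this was a smaller fall in aged than in young cells. The median log2 fold change of the 24 genes was -0.13 and -0.10 in the comparisons of age and -0.0097 and 0.095 in those of LPS, against -0.01 and 0.0085 and against -0.01 and 0.00051 over all genes.

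Among 45 other C-type lectins and C-type lectin-like genes 16 were tested. With LPS 7 rose and 5 fell at each age, against 31.2% and 33.5% of all genes in young and 27.5% and 26.9% in aged cells, and the list medians were 0.028 and 0.19 on the log2 scale. *Clec12a*, an inhibitory receptor of myeloid cells, measured 2.24 to 7.8 CPM in young untreated and 21.5 to 47.2 CPM in young LPS cultures (log2 fold change 2.83, edgeR adjusted p = 5.00e-08). *Thbd*, encoding thrombomodulin, measured 13.9 to 18.5 CPM and 1.24 to 2.32 CPM in the same groups and fell (log2 fold change -3.37, edgeR adjusted p = 7.22e-15). *Thbd* fell less in aged cells, and the difference of the responses passed the test (1.14, edgeR adjusted p = 0.0024). With age 4 of the 16 were lower without LPS and 8 with LPS, against 7.81% and 15.0% of all genes, while 0 and 1 were higher, against 3.71% and 14.0%, with list medians of -0.57 and -0.63 on the log2 scale. *Clec7a*, encoding the beta-glucan receptor Dectin-1, was lower in aged cells under both conditions, at 101 to 133 against 56 to 72.1 CPM untreated and 43.2 to 64.2 against 18.4 to 35.5 CPM with LPS (-0.80 and -0.91). *Cd93* (-0.61) and *Cd302* (-0.51) were lower in aged untreated cells, and *Clec12a* (-1.08) and *Cd72* (-0.80) in aged LPS cells.

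Of 19 other scavenger receptors 9 were tested, and 4 rose with LPS at each age while 3 fell in young and 2 in aged cells, the falls being near the share of all genes given above. *Marco*, a class A receptor like *Msr1*, rose most of the list. In young cells it measured 0.181 to 0.599 CPM untreated and 26.7 to 57 CPM with LPS (log2 fold change 6.66, edgeR adjusted p = 3.80e-15), and in aged cells 0 to 0.275 CPM and 5.96 to 8.46 CPM (log2 fold change 6.08, edgeR adjusted p = 2.04e-11). Aged LPS cultures lay below young LPS cultures with no overlap (log2 fold change -2.38, edgeR adjusted p = 9.87e-09), and the few untreated counts make the size of its rise uncertain. *Cxcl16*, a membrane-bound chemokine that binds oxidised LDL, had log2 fold changes of 2.51 and 2.63 in young and aged cells, and the hyaluronan receptor *Cd44* of 1.52 and 1.12. The list medians were 0.43 and 0.0025 with LPS and -0.40 in each comparison of age. With age *Stab1* (-0.45) and *Scarb2* (-0.28) were lower without LPS, against 7.81% of all genes, and 4 of the 9, among them *Marco*, *Cd44* and *Stab1*, with LPS, against 15.0%, and none was higher. Of the 4 lysosome-associated membrane glycoproteins related to *Cd68*, 2 were tested, and *Lamp2* was lower in aged cells untreated (log2 fold change -0.21) and with LPS (-0.31) and rose with LPS in young cells (0.22). Over the 4 lists 12 of 51 tested genes passed for age in untreated cells, or 19 with the batch as a block and 6 without batch 2. Of all genes tested 1475 of 12799 passed, or 2204 with the block and 548 of 12828 without batch 2, so the background moved in the same directions.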

How the data were processed

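RNA of 20 BV-2 cultures was sequenced from poly(A)-selected stranded libraries. The authors aligned the reads to GRCm38 with STAR 2.6.1d and counted them per Ensembl gene with featureCounts 1.5.1, per the labels and the study's methods, and deposited raw whole-number counts. How featureCounts treated strand, multi-mapped reads and overlaps is not given in the sources used here. All 20 columns were matched to samples by library name, and 55141 of 55487 identifiers had a symbol. The 10 receptors, the related lists and the tests were chosen with earlier results of these data known.

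Counts were filtered with filterByExpr, scaled by TMM and tested with edgeR 4.0.16 (glmQLFit, glmQLFTest, R 4.3.3), with the group as the only factor over all 20 libraries and Benjamini-Hochberg adjustment over 12799 genes, and the code was tested on simulated data. SE were the log2 fold change divided by the root of F. All 10 receptors are described. For each related list and comparison at most 3 genes past the threshold are named, those with the largest log2 fold change and a mean of at least 1 log2 CPM, beside the LPS controls *Tnf*, *Il1b* and *Nos2*. The alternatives were DESeq2 1.42.0, other size factors and filters, only the groups compared, left-out cultures and the batch as a block. The fits without aged culture 3, young culture 1 or aged culture 1 were added after the values were seen, unlike those without a whole batch. The labels give the replicate number as a batch, which pairs the cultures: over 30 pairs of same-numbered libraries, deviations from the group means correlated by 0.15 on average, by 0.27 between untreated and LPS cultures of the same age, and by 0.077, from -0.21 to 0.27, between young and aged cultures of the same treatment, the pairs on which the blocked comparisons of age rest. P-values measure the spread between the 5 cultures within a group, estimated jointly over the 4 groups, and the study calls these cultures independent. The aged cultures came from aliquots frozen after the long-term cultivation, and the number of separate cultivations is not given. The p-values for age therefore may not cover the spread between separate long-term cultivations. No pair of replicates agreed within sampling noise (chi-square per degree of freedom of at least 2.35 in 40 pairs). Exon lengths came from GENCODE vM21 and upstream bases from RefSeq.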

Additional observations from a re-analysis of the deposited data

Results flagged for a closer look

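In 6 of 40 sets of 5 cultures (10 genes in 4 groups) 1 culture stood apart from the other 4 by a gap large against the range of its group. Chance gives about 1 in 20 sets where the sets are independent. The 10 genes were measured in the same libraries and several moved together from culture to culture, so the 6 cannot be read against that rate. *Cd68* was at 1409 CPM in young LPS culture 1, against 988 to 1077 CPM in the other 4, and at 1362 CPM in aged LPS culture 3, against 953 to 989.5 CPM. *Clec4e* was at 30.9 CPM in young untreated culture 1, against 15.2 to 18.5 CPM. *Scarb1* was at 162 CPM in young LPS culture 4, against 182 to 188 CPM. *Clec4n* was low in young untreated culture 4, at 0.989 CPM against 1.34 to 1.51 CPM, and in young LPS culture 1, at 1.38 CPM against 2.24 to 2.58 CPM. Without young culture 1 the log2 difference between ages changed sign for *Clec4e* untreated, from -0.21 to 0.013, and for *Cd68* with LPS, from -0.079 to 0.022, and none of these values passed the test.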

How the results depend on the processing

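Of 724 alternative fits of a receptor in a comparison, 681 kept the direction and the side of the threshold, 10 lost a call, 15 gained one and 18 changed sign, none of the last past the threshold. The cause of these changes was not tested. Leaving out each batch in turn gave 2 to 4 receptors past the threshold for age without LPS, 3 to 7 for age with LPS, 7 in each case for LPS in young cells, 6 for LPS in aged cells and 0 for the difference of the responses. Without aged culture 3, which was picked after its high values were seen, 4 receptors passed for age without LPS. With the batch as a block 1 receptor, *Scarb1*, passed for the difference of the responses, and 1 with library sizes alone; beside *Msr1* without LPS and *Olr1* with LPS between ages, the block changed no other call of a receptor. Library sizes alone changed the sign of *Cd68* in young LPS cells (-0.034), of *Msr1* in aged LPS cells (-0.079), and of *Cd68* (0.0024) and *Colec12* (0.038) for age with LPS. Leaving out a batch gave ranges, for age without LPS, of -0.20 to 0.56 for *Cd36*, -0.25 to 0.052 for *Cd68*, -0.44 to 0.066 for *Clec4d* and -0.37 to 0.079 for *Clec4e*. The ranges were -0.16 to 0.77 for *Cd36*, -0.20 to 0.058 for *Cd68* and -0.17 to 0.064 for *Colec12* for age with LPS, -0.18 to 0.0047 for *Cd36* in aged LPS cells, and -0.015 to 0.41 for *Cd36* in the difference. Without aged culture 3 *Cd36* was at -0.36 untreated and -0.20 with LPS, and *Clec4d* at -0.45 untreated. Without young culture 1 *Clec4e* was at 0.013 untreated and *Cd68* at 0.022 with LPS, and without aged culture 1 *Colec12* was at 0.020 with LPS. Without batch 2 the genes called among all tested went from 1475 to 548 for age without LPS, from 3717 to 2156 for age with LPS and from 818 to 189 for the difference, which also gave 532 without batch 4 and 410 without batch 5. The related genes called for age without LPS went from 12 to 19 in DESeq2, with the block and without aged culture 3, and to 6 without batch 2; for the difference they went from 5 to 3 without batch 1 or 2. A minimum of 10 counts in every library removed *Cd36*, *Olr1* and *Clec4n*, and the fit of the untreated libraries alone removed *Olr1*. Depth limits *Olr1* without LPS, *Clec4n* and *Cd36* most, which had between 1 and 116 counts a library.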
